A study of Sus scrofa with 70 samples.

Results

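MicroRNA abundance was compared between pigs of 2 breeds in the epididymis, the vesicular gland and the prostate gland, using every small RNA library of these glands. These are 18 of the 30 small RNA libraries and of the 70 samples of the series, with 9 libraries of the Diannan small-ear pig (DSE) and 9 of the Banna mini-pig inbred line (BMI). Each breed had 3 libraries in each gland, all from boars aged 12 months. BMI is a line bred from DSE pigs by repeated mating of close relatives, so a difference between BMI and DSE is one between an inbred line and its breed of origin. No treatment was given, and the part of the epididymis that was sampled is not stated in the sources used here. Nothing in the labels states that libraries of a group came from separate boars, or whether the 3 glands share boars. The p-values thus measure the spread between these samples, which may be technical. The remaining libraries of the series, from testis, bulbourethral gland and other assays, enter here only where a value is set against them.

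MicroRNAs (miRNAs) are short RNAs cut from hairpin precursors and loaded into Argonaute proteins, where they lower the stability and translation of messenger RNAs. Pairing rests mainly on the seed, the stretch of bases near the 5′ end, so miRNAs that share a seed share many predicted targets. Epididymis, vesicular gland and prostate are ducts and secretory epithelia wrapped in smooth muscle, and small RNAs of the epididymis and the accessory glands also reach sperm and seminal plasma.

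The deposited table has 743 entries, where a mature miRNA is listed again for every hairpin that could yield it. Of the entries, 444 are known pig miRNAs and 299 are predictions. The unit is RPM, in which every library has been brought to an equal sum of miRNA reads. In the 18 libraries, 424 entries with 367 names reached 1 RPM in at least 3 libraries and were tested. A difference is given as DSE minus BMI on the log2(RPM + 1) scale, so it is negative where DSE was lower, and understates the change of entries near or below 1 RPM. An entry is called where limma's Benjamini-Hochberg adjusted p was below 0.05 and the difference was at least 1.

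The mature sequences of the known miRNAs on which the results turn are shown with the seed (bases 2 to 8) in capitals, 5′ to 3′. They were read from the Sscrofa11.1 genome at the positions of RefSeq. The first ones are miRNAs called between the breeds, and miR-1 and let-7a are shown because they share the seeds of miR-206 and miR-98. The last ones are the most abundant miRNAs of these glands.
ssc-miR-206: uGGAAUGUaaggaaguguguga
ssc-miR-1: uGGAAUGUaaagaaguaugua
ssc-miR-425-5p: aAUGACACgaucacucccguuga
ssc-miR-374a-5p: uUAUAAUAcaaccugauaagug
ssc-miR-374a-3p: cUUAUCAGguuguauuguaauu
ssc-miR-429: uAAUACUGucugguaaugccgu
ssc-miR-98: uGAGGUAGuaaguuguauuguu
ssc-let-7a: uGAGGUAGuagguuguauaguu
ssc-miR-143-3p: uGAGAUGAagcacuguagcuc
ssc-miR-148a-3p: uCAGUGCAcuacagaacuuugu
The 17 called known miRNAs with a RefSeq position, of 24 called known names, had 17 different seeds. The other called names, miR-381-3p, miR-200b and miR-20a-5p among them, are given by name only. Their seeds were not compared, so whether any of them shares a seed with one of the 17 was not tested. No sequence or position of the predicted miRNAs was used here, and their names hold a chromosome and a serial number.

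MiR-206 lies on chromosome 7 (chr7:45976342-45976363, plus strand), inside an exon of the 1 isoform of the unnamed gene ENSSSCG00000058584 in the deposited annotation. MiR-425-5p lies at chr13:31655040-31655062 on the minus strand within DALRD3, where 41 of the gene's 43 isoforms span it and 38 have an exon over it. The 2 arms of miR-374a lie at chrX:59602924-59602945 and chrX:59602894-59602915 on the minus strand. No exon covers them, and they are spanned by 4 isoforms of the unnamed gene ENSSSCG00000057763 and by 1 isoform each of RPS4X, PHKA1, HDAC8 and NEXMIF. MiR-429 lies at chr6:63491970-63491991 on the plus strand, within introns of 1 isoform of TMEM88B and 1 of ENSSSCG00000027991. Elsewhere, miR-1 lies at chr17:61894099-61894119 (plus), miR-98 at chrX:46302436-46302457 (minus) within the span of HUWE1, miR-143-3p at chr2:150578786-150578806 (plus) and miR-148a-3p at chr18:46415256-46415277 (plus). Let-7a has 2 positions, chr3:43465677-43465698 (plus) and chr9:49152637-49152658 (minus).

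The libraries held 13070000 to 21680000 miRNA reads, with a mean of 15530000 ± 1810000 in BMI and 18980000 ± 2790000 in DSE (SD, n = 9). By the paper's quality figures, each DSE vesicular gland library had a higher mapped share and shorter mean reads than each BMI one. In epididymis and prostate gland the breeds overlapped in both measures. The part of these measures in the breed differences was not tested. BMI vesicular gland 1 and BMI prostate gland 3 stood apart, with 4.18% and 3.01% of their reads on miR-143-3p, a miRNA of smooth muscle, against 23.1% to 53.4% in the other 7 BMI libraries and 30.7% to 78.8% in the 9 DSE libraries. Among RNA-seq libraries with the same labels, the epididymis libraries BMI 2 and DSE 1 stood apart. BMI 2 had 9677 TPM of LCN8 and 10294 TPM of RNASE10, genes of the first part of the duct, where the other 5 had at most 21.2 and 20.1 TPM. CRISP1, another epididymal secretory gene, was at 21.3 TPM in DSE 1, at 1100.0 to 2759 TPM in the other 5 libraries and at most 2.28 TPM in the other 2 glands. The prostate libraries had 88607 to 178304 TPM of MSMB and 92.7 to 297 TPM of HOXB13, which was at 0 in the other 2 glands. The table has 3 of the 7 epididymis markers, none of the 4 of the vesicular gland and all 3 of the prostate, so the vesicular gland label was not checked this way.

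Across the 3 glands, with the gland as a term of the model, DSE and BMI differed in 31 of 424 entries (7.31%), of 29 names. Of these, 30 were lower in DSE (7.08%) and 1 was higher (0.236%). The predicted miRNAs chr8_43390 and chr13_9416 were near-absent in DSE, and chr1_2528 was near-absent in BMI. The known miRNAs that fell furthest in DSE were miR-206, a miRNA of skeletal muscle, miR-425-5p, and miR-381-3p of the imprinted DLK1-DIO3 cluster. The epithelial miRNAs miR-200b and miR-429 fell as well. The number of calls depended on the scale. With library size factors (the median of ratios to the mean library) in place of the total, 4 entries of 4 names were called (0.943%), namely the 3 predicted miRNAs and miR-708-3p. With edgeR and TMM factors there were 5, the same 4 and miR-206.

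The predicted miRNA chr8_43390 gave the largest difference. In epididymis it was at 30.38, 94.47 and 48.77 RPM in the BMI libraries and at 0 in each DSE library. In vesicular gland it was at 12.55, 38.26 and 32.19 RPM in BMI and at 0 in each DSE library. In prostate gland it was at 41.97, 53.8 and 14.82 RPM in BMI, and at 0.09, 0 and 0 RPM in DSE. No BMI library of a gland overlapped a DSE library. Summed over the 3 glands, 5670 of 139790000 BMI reads fell on it and 2 of 170860000 DSE reads, a ratio of 3465 with an exact 95% counting interval of 959 to 28620. Against the limit of 3 reads that a count of 0 allows over the group (0.049 RPM in DSE epididymis, 0.0507 RPM in DSE vesicular gland), BMI was at least 1152-fold higher in epididymis and at least 543-fold higher in vesicular gland. These intervals and limits cover counting error only. The fitted difference over the 3 glands was -5.15 ± 0.29 (SE, limma, adjusted p = 2.655e-11) and -4.90 with size factors.

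The predicted miRNA chr13_9416 followed it closely in BMI. It was at 25.31, 74 and 36.18 RPM in BMI epididymis, at 8.45, 31.09 and 28.03 RPM in BMI vesicular gland, and at 37, 45.24 and 10.1 RPM in BMI prostate gland. In DSE it was at 0.31 to 0.49 RPM in epididymis, 0.26 to 0.45 RPM in vesicular gland and 0.06 to 0.23 RPM in prostate gland. Here too the breeds were separate in each gland, but DSE was not at 0. DSE had 53 reads against 4552 in BMI, a ratio of 105 per read sequenced (counting interval 80.1 to 140). The fitted difference was -4.46 ± 0.31 (SE, limma, adjusted p = 7.058e-10). In the 9 BMI libraries, chr13_9416 had 0.674 to 0.882 reads for each read of chr8_43390 (median 0.812), while chr8_43390 itself ran from 12.55 to 94.47 RPM. In DSE the order was the other way, with 53 reads of chr13_9416 and 2 of chr8_43390.

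The predicted miRNA chr1_2528 had the opposite pattern and was the only called entry that was higher in DSE on the RPM scale. DSE had 1.59, 3.36 and 7.46 RPM in epididymis, 5.07, 14.31 and 11.77 RPM in vesicular gland and 8.58, 9.37 and 15.99 RPM in prostate gland. BMI had 0.34, 0.07 and 0.15 RPM in epididymis, 0, 0.07 and 0.06 RPM in vesicular gland and 0 in each prostate library. The lowest DSE library was thus above the highest BMI library in every gland. Over the 3 glands there were 1413 reads in DSE and 11 in BMI, a ratio of 105 (counting interval 58.6 to 211). In prostate gland, where BMI had 0 of 45810000 reads, DSE was at least 164-fold higher. The fitted difference was 2.96 ± 0.27 (SE, limma, adjusted p = 9.108e-08).

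**Figure D1:**
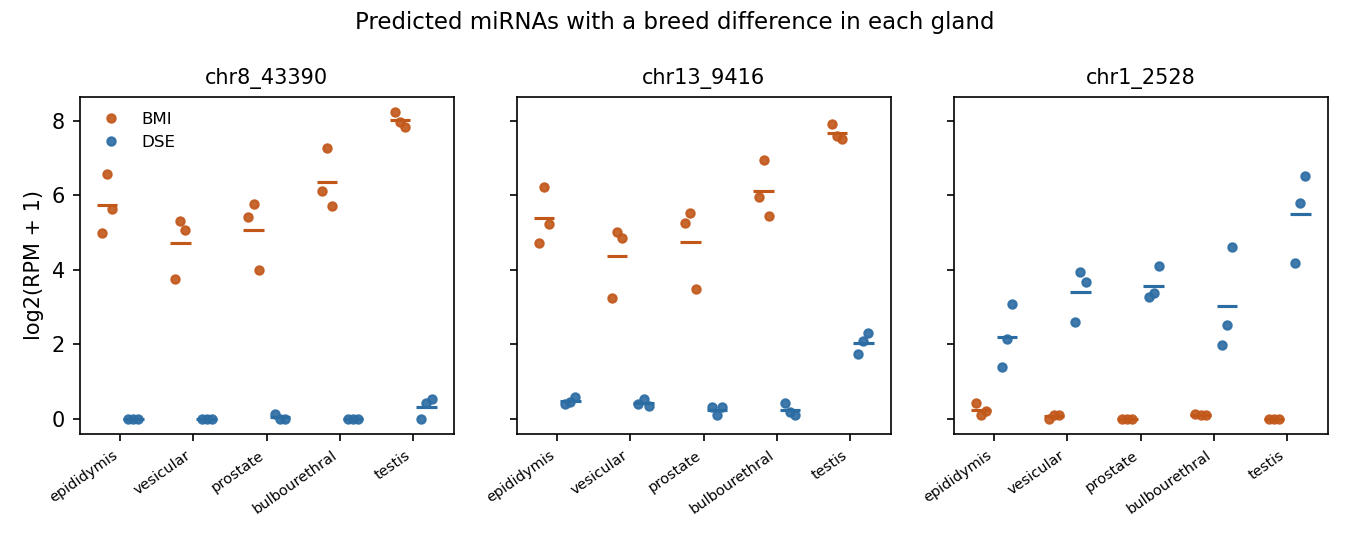
Abundance of chr8_43390, chr13_9416 and chr1_2528, as log2(RPM + 1), in each small RNA library of 5 glands (points, 3 per breed and gland) with the group mean (line). BMI and DSE libraries do not overlap in any gland, and chr8_43390 is at 0 in 8 of the 9 DSE libraries of epididymis, vesicular gland and prostate gland.

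These 3 miRNAs were also the calls of the single glands. Each gland was fitted alone with 3 libraries per breed. In epididymis 2 of 424 entries were called (0.472%), chr8_43390 at -5.73 ± 0.53 (limma, adjusted p = 0.000399) and chr13_9416 at -4.91 ± 0.53 (adjusted p = 0.00077), and chr1_2528 was at 1.95 ± 0.42 (adjusted p = 0.141). In vesicular gland 3 were called (0.708%), with chr8_43390 at -4.70 ± 0.46, chr13_9416 at -3.95 ± 0.51 and chr1_2528 at 3.34 ± 0.39. In prostate gland the same names made up the 3 calls (0.708%), at -5.02 ± 0.50, -4.52 ± 0.55 and 3.57 ± 0.34 in that order. With size factors the numbers of calls were 2, 3 and 3. In 1 fit of all 18 libraries they were 28, 3 and 3 on the RPM scale. Without BMI vesicular gland 1, which was low in miR-143-3p, 21 entries were called in that gland, 20 of them lower in DSE, and without the epididymis library BMI 2 the epididymis calls stayed at 2. Without the epididymis library DSE 1 there were 8.

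In the bulbourethral gland and the testis these 3 miRNAs differed between the breeds in the same direction. In bulbourethral gland chr8_43390 was at 51.05 to 151.96 RPM in BMI and 0 in DSE, chr13_9416 at 42.58 to 122.4 and 0.06 to 0.34 RPM, and chr1_2528 at 0.07 to 0.08 and 2.93 to 23.22 RPM. Testis had the highest levels, with chr8_43390 at 227.35 to 301.26 RPM in BMI and 0 to 0.44 RPM in DSE. In testis chr13_9416 was at 180.34 to 240.24 RPM in BMI and 2.35 to 3.92 RPM in DSE, and chr1_2528 was at 0 in BMI and 17.12 to 90.08 RPM in DSE. Ordered by the mean in BMI, chr8_43390 ran from testis (259 ± 38.2 RPM, SD, n = 3) through bulbourethral gland (90.2 ± 54.1), epididymis (57.9 ± 33.0) and prostate gland (36.863 ± 19.985) to vesicular gland (27.7 ± 13.4). Testis did not overlap any other gland, whereas each later neighbour overlapped the one before it. Over all 15 BMI libraries, chr13_9416 had 0.674 to 0.895 reads for each read of chr8_43390.

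Most miRNAs were lower in DSE on the RPM scale. On the log2(RPM + 1) scale the median over all 424 entries was -0.48, so the typical entry was lower in DSE, and with size factors it was -0.08. Known names had a median of -0.50, with 92.2% of 293 names below 0, and predicted names a median of -0.36, with 71.6% of 74 below 0. With size factors the medians were -0.09 and -0.06, with 59.4% and 52.7% of names below 0. By gland, the median over all entries was -0.65 in epididymis, -0.47 in vesicular gland and -0.21 in prostate gland on the RPM scale, and -0.06, -0.06 and -0.04 with size factors. Leaving out 1 library gave -0.85 to -0.43, -0.61 to -0.37 and -0.34 to -0.08 on the RPM scale, with the highest value in prostate gland without BMI 2.

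The composition of the libraries moved with this shift. The 5 most abundant miRNAs, miR-143-3p, miR-148a-3p, miR-21-5p, miR-99a-5p and miR-10a-5p, took 72.2% ± 3.6 of the reads in BMI and 79.5% ± 4.92 in DSE (SD, n = 9). The mean difference within glands was 7.37 percentage points (exact permutation test within glands, two-sided, 8000 arrangements, p = 0.00275, adjusted p = 0.0163 over 9 measures). It was 9.17 points in epididymis, 8.25 in vesicular gland and 4.69 in prostate gland. In vesicular gland the 3 DSE libraries, at 79.1% to 83.3%, lay above the 3 BMI libraries at 70.1% to 75.2%, and in the other 2 glands the breeds overlapped. The number of entries with at least 1 RPM was 368 ± 26.5 in BMI and 342 ± 21.5 in DSE, and the number of reads was higher in DSE (both p = 0.00725 and adjusted p = 0.0163 in the same exact test). The exact test takes the libraries of the 3 glands as independent. If 3 boars of each breed gave all 3 glands, a permutation of 3 against 3 could give no p below 0.10. The part of read depth in the breed differences was not tested.

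MiR-143-3p alone took 28.2% ± 16.5 of the reads in BMI and 44.9% ± 17.1 in DSE, a difference of 16.7 points (same exact test, p = 0.031, adjusted p = 0.0558). Without the BMI libraries vesicular gland 1 and prostate gland 3, the BMI mean was 35.3% ± 10.2 (n = 7). Its fitted difference was 1.04 ± 0.45 (limma, adjusted p = 0.0905), or 1.54 with size factors (adjusted p = 0.0682). MiR-148a-3p, a miRNA found in many glandular tissues, took 30.3% ± 16.7 in BMI and 25.3% ± 13.9 in DSE (p = 0.464, exact test). The other 3 did not pass the test either, at adjusted p of 0.119 to 0.207.

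**Figure D2:**
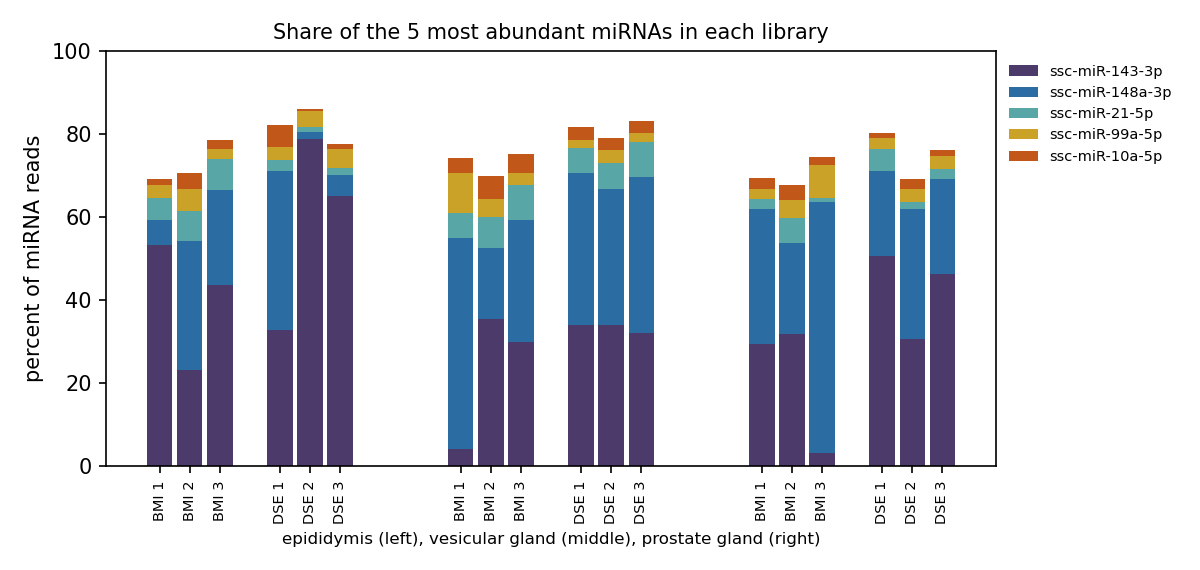
Percent of miRNA reads on the 5 most abundant miRNAs in each of the 18 libraries, stacked, with BMI and DSE libraries side by side for epididymis, vesicular gland and prostate gland. The 5 together take 67.8% to 78.6% in BMI and 69.1% to 86.1% in DSE, and miR-143-3p is at 4.18% and 3.01% in BMI vesicular gland 1 and BMI prostate gland 3.

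**Figure D3:**
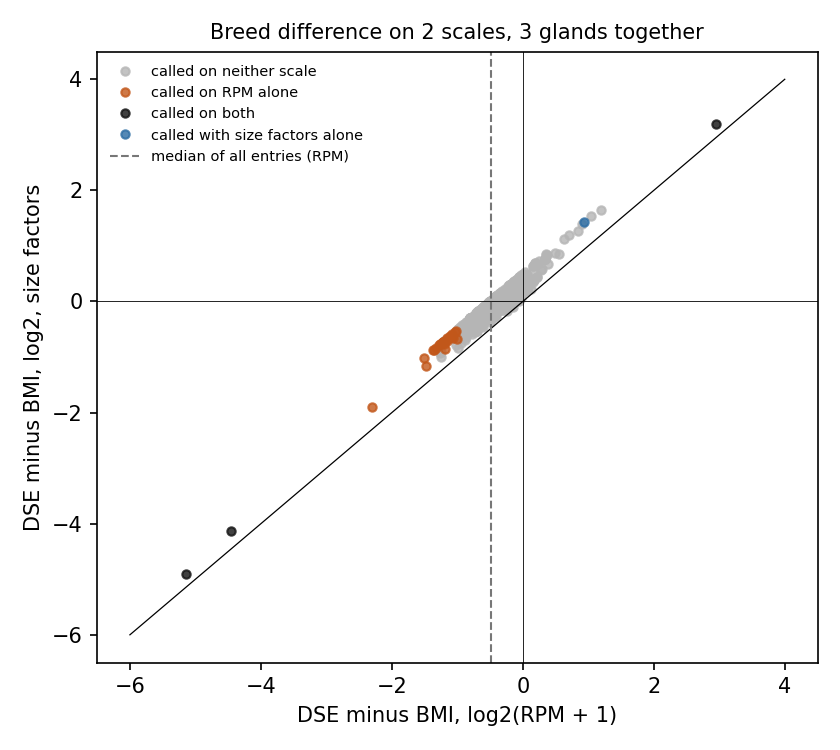
Breed difference (DSE minus BMI, log2) of the 424 entries over 3 glands, on the RPM scale (x axis) and with size factors (y axis). The cloud lies above the diagonal line of equal values, with a median of -0.48 on the x axis (dashed line) and -0.08 on the y axis, and 3 entries far from the cloud are called on both scales.

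The known miRNA with the largest difference was miR-206, a miRNA of skeletal muscle. In epididymis it was at 476.56, 22.82 and 33.56 RPM in BMI and at 18.49, 9.29 and 47.62 RPM in DSE. In vesicular gland it was at 7.4, 7.03 and 33.13 RPM in BMI and at 1.38, 1.34 and 0.77 RPM in DSE. In prostate gland it was at 43.87, 12.27 and 35.27 RPM in BMI and at 2.95, 5.63 and 3.67 RPM in DSE. The breeds were separate in vesicular and prostate gland and overlapped in epididymis. The difference over the glands was -2.30 ± 0.49 (limma, adjusted p = 0.00524), or -1.82 relative to the median entry. With size factors it was -1.90 (adjusted p = 0.056), and edgeR with TMM called it at -2.77 (adjusted p = 0.00464). In bulbourethral gland it was at 37.1 to 142.29 RPM in BMI and 0.96 to 1081.28 RPM in DSE.

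MiR-206 was 1 of the 6 tested names of skeletal muscle, and the only one called, where 7.08% of all entries were called lower. MiR-1, which has its seed, was at -0.71 ± 0.34 (adjusted p = 0.118), miR-133a-3p at -0.57 ± 0.30 (adjusted p = 0.146) and miR-499-5p at -0.01 ± 0.27 (adjusted p = 0.977). The 6 names summed to 621 to 6301 RPM in BMI (median 1549) and 264 to 3930 RPM in DSE (median 999), and their part in the value of miR-206 was not tested. Here, as in every value from bulk tissue, fewer cells of a type and less RNA per cell cannot be told apart.

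MiR-381-3p, a miRNA of the large DLK1-DIO3 cluster that is expressed from the maternal chromosome, was called at high abundance. In epididymis it was at 2941.8, 2094.11 and 1890.2 RPM in BMI and at 587.48, 378.43 and 830.74 RPM in DSE. In vesicular gland it was at 456.59, 939.27 and 971.61 RPM in BMI and at 223.66, 424.52 and 146.11 RPM in DSE. The breeds did not overlap in these 2 glands. In prostate gland they did, at 1871.93, 1387.27 and 1118.81 RPM in BMI and 1161.08, 964.13 and 937.32 RPM in DSE. Over the glands it fell by 1.37 ± 0.28 (limma, adjusted p = 0.0037). With size factors it was at -0.87, which is under the minimum difference, with an adjusted p of 0.031.

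Of the 13 tested names of the DLK1-DIO3 cluster, miR-381-3p and miR-136-3p (-1.01 ± 0.26, adjusted p = 0.0117) were called, both lower in DSE, against 7.08% of all entries, and 7 had an adjusted p below 0.05, all lower. Such a p alone was reached by 97 of all 424 entries in the lower direction (22.9%). The median of the 13 was -0.67 on the RPM scale, against -0.48 for all entries, and -0.34 with size factors, against -0.08. MiR-136-5p, the other arm of the hairpin of miR-136-3p, was singled out after its values were seen. It was at 5.4, 5.69 and 4.48 RPM in BMI epididymis and 1.49, 1.17 and 1.43 RPM in DSE epididymis. In vesicular gland it was at 1.37 to 1.83 RPM in BMI and 0.15 to 0.51 RPM in DSE, and in prostate gland at 2.1 to 2.95 and 1.33 to 1.48 RPM. The breeds were separate in each gland, at -0.96 ± 0.16 (limma, adjusted p = 0.000705) and -0.66 with size factors (adjusted p = 0.0302). Since these levels are near 1 RPM, a pseudocount of 0.1 gave -1.54.

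MiR-425-5p, which is cut from the DALRD3 locus, was at 200.65 to 878.58 RPM in the BMI libraries (median 263.03) and 29.73 to 286.19 RPM in the DSE libraries (median 106.7). The breeds overlapped in epididymis alone, where DSE 1 had 286.19 RPM. The difference was -1.51 ± 0.36 (limma, adjusted p = 0.00988) and -1.02 with size factors (adjusted p = 0.113). Both arms of miR-374a, whose locus is on the X chromosome, were called. MiR-374a-5p ran from 135.23 to 584.65 RPM in BMI (median 162.59) and 29.5 to 142.83 RPM in DSE (median 94.44), with -1.36 ± 0.32 (limma, adjusted p = 0.00817). MiR-374a-3p ran from 84.17 to 179.91 RPM in BMI (median 97.9) and 15.92 to 69.58 RPM in DSE (median 45.96), with -1.28 ± 0.26 (limma, adjusted p = 0.0037). For miR-374a-3p every DSE library was below every BMI library, and miR-374a-5p overlapped in prostate gland. With size factors the differences of the 2 arms were -0.87 and -0.79, with adjusted p of 0.147 and 0.0803.

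The epithelial miRNAs miR-200b and miR-429 come from the same cluster and keep epithelial cells from turning mesenchymal by repressing ZEB factors. MiR-200b was at 6291, 21380 and 15409 RPM in BMI epididymis and 3717, 1614 and 4035 RPM in DSE epididymis. In vesicular gland, where it was most abundant, it was at 37007, 37266 and 42469 RPM in BMI and 30299, 31063 and 35104 RPM in DSE. In prostate gland it was at 23559, 36423 and 26969 RPM in BMI and 6900, 19719 and 9513 RPM in DSE. On the RPM scale the breeds were thus separate in each gland, but by little in the vesicular gland. There the difference was -0.28 on the RPM scale and 0.41 with size factors, so its sign depended on the scale. The difference was -1.27 ± 0.31 (limma, adjusted p = 0.0115), and -0.77 with size factors (adjusted p = 0.154). MiR-429 was at 157.62 to 683.36 RPM in BMI (median 226.4) and 42.75 to 254.54 RPM in DSE (median 138.8), with -1.33 ± 0.35 (limma, adjusted p = 0.013) and -0.83 with size factors (adjusted p = 0.196). The breeds overlapped in epididymis and vesicular gland and were separate in prostate gland. In vesicular gland miR-429 was at -0.65 on the RPM scale and 0.03 with size factors.

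Of the 4 tested epithelial names, miR-200b, miR-429 and miR-205 (-1.16 ± 0.37, adjusted p = 0.0338) were called, against 7.08% of all entries, and miR-141 was at -0.67 ± 0.39 (adjusted p = 0.189). With size factors 0 of the 4 were called. These 4 had a median of -1.22 on the RPM scale and -0.72 with size factors. Their sum was 6599 to 43441 RPM in BMI (median 27510) and 1801 to 35755 RPM in DSE (median 9781), and the share of epithelium in the samples was not tested. The predicted miRNA chr3_23861 was at 2.45 to 15.98 RPM in BMI (median 4.64) and 0.42 to 3.12 RPM in DSE (median 1.28), separate in each gland, with -1.49 ± 0.30 (limma, adjusted p = 0.0037). With size factors it was at -1.16 (adjusted p = 0.0682).

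**Figure D4:**
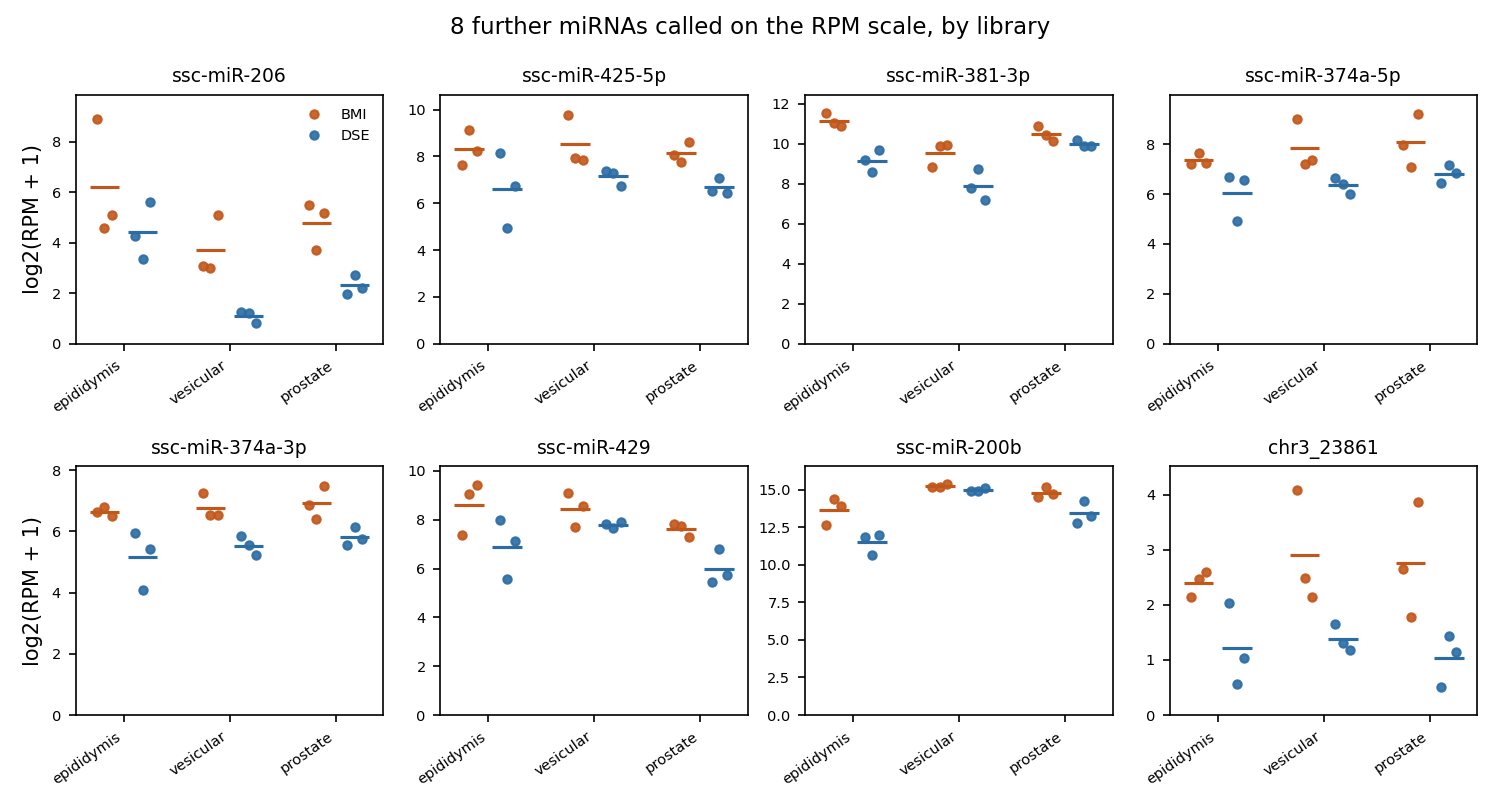
Abundance of 8 further called miRNAs, as log2(RPM + 1), in each library of 3 glands (points, 3 per breed and gland) with the group mean (line). On this scale DSE is below BMI in each gland for miR-374a-3p, miR-200b and chr3_23861 without overlap, and overlaps BMI in epididymis for miR-206, miR-425-5p and miR-429, in vesicular gland for miR-429, and in prostate gland for miR-381-3p and miR-374a-5p. With size factors the difference of miR-200b in vesicular gland is 0.41.

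Entries whose breeds did not overlap were counted in each gland as a description. This was done on the RPM scale, where the typical entry was lower in DSE, and not with size factors. All 3 DSE libraries were below all 3 BMI libraries for 99 entries in epididymis (23.3%), 155 in vesicular gland (36.6%) and 50 in prostate gland (11.8%). They were above for 1 (0.236%), 7 (1.65%) and 9 (2.12%). In all 3 glands 18 entries were lower (4.25%), and chr1_2528 alone was higher. Among the 18 were miR-17-5p, miR-18a and miR-20a-5p of the miR-17-92 cluster, which promotes proliferation, and miR-362, miR-374a-3p, miR-200b and miR-136-5p.

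Calls in the other lists were also read against the 7.08% of all entries that were lower, and none of their names was called with size factors. Of 11 tested names of the miR-17-92 cluster and its paralogues, miR-20a-5p (-1.21 ± 0.28, adjusted p = 0.00817), miR-19a (-1.19 ± 0.32, adjusted p = 0.0172) and miR-17-5p (-1.11 ± 0.29, adjusted p = 0.0127) were called lower (against 7.08% of all entries). MiR-92a, which has positions on chromosome 11 and on the X chromosome, was at -0.23 ± 0.25 (adjusted p = 0.485). The 11 names had a median of -0.69, and -0.34 with size factors. Of 11 names of the let-7 family, which restrains proliferation and marks differentiated tissue, miR-98 was called (-1.23 ± 0.27, adjusted p = 0.00563), a share near that of all entries. Let-7a, which differs from miR-98 outside the seed, was at -0.52 ± 0.19 (adjusted p = 0.053), and let-7i-5p, the most abundant member, was at -0.44 ± 0.20 (adjusted p = 0.104). Over the family the median was -0.56, and -0.06 with size factors. In the miR-17-92 list and in the let-7 list alike, 6 of 11 names had a limma adjusted p below 0.05, all lower in DSE. Such a p alone was reached in the lower direction by 22.9% of all entries.

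In the next lists 1 name each was called, and 7.08% of all entries. Of 5 names of the HOX clusters, miR-10a-3p was called (-1.19 ± 0.33, adjusted p = 0.0206), and the far more abundant arm miR-10a-5p was at -0.61 ± 0.34 (adjusted p = 0.174). These 5 had a median of -1.19, and -0.71 with size factors. MiR-34a, a target of p53, was called (-1.13 ± 0.31, adjusted p = 0.0173), and miR-34c, the other tested name of the miR-34 and miR-449 list, was at -0.73 ± 0.50 (adjusted p = 0.263). Together the pair had a median of -0.93, and -0.49 with size factors. Of 8 names of the miR-23, miR-24 and miR-27 clusters, miR-23b was called (-1.09 ± 0.33, adjusted p = 0.027), and miR-27b-3p from the same cluster was at 0.04 ± 0.31 (adjusted p = 0.928). The median of the 8 was -0.28, and 0.22 with size factors, so the sign of this list depended on the scale. Of 4 smooth muscle names, miR-145-3p was called (-1.04 ± 0.26, adjusted p = 0.0116), while the most abundant name, miR-143-3p, was at 1.04 ± 0.45 (adjusted p = 0.0905). Their median was -0.43, or 0.07 with size factors.

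No name was called in the lists of the miR-29 family (median -0.49), the miR-30 family (-0.41), miR-15 and miR-16 (-0.48), miR-181 (-0.52), miR-148 and miR-152 (-0.49), miR-99, miR-100 and miR-125 (-0.37) and the miR-183 cluster (-0.96). With size factors their medians were -0.11, 0.04, -0.05, -0.06, 0.02, 0.14 and -0.48 in the same order. The most abundant of these were miR-29a-3p (-0.62 ± 0.25), miR-30d (-0.59 ± 0.24), miR-16 (-0.55 ± 0.23), miR-181a (-0.41 ± 0.29), miR-148a-3p (-0.48 ± 0.47), miR-99a-5p (-0.52 ± 0.29) and miR-182 (-1.25 ± 0.57), with adjusted p from 0.0669 to 0.435. MiR-210, which answers to hypoxia, was at -0.99 ± 0.38 (adjusted p = 0.0585). Among 10 names linked to inflammation none was called, with a median of -0.73, or -0.27 with size factors, and miR-21-5p at -0.61 ± 0.37 (adjusted p = 0.207).

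Markers of other cells had no further calls. The red cell miRNAs had a median of -0.74 (-0.27 with size factors), with miR-451 at -1.01 ± 0.37 (adjusted p = 0.053), and summed to 774 to 4486 RPM in BMI and 494 to 3133 RPM in DSE. The white cell miRNAs had a median of -0.66 (-0.18 with size factors), with miR-142-5p at -0.66 ± 0.29 (adjusted p = 0.0979) and miR-142-3p at -0.89 ± 0.30 (adjusted p = 0.0427), under the minimum difference. The other white cell names were miR-155-5p at -0.72 ± 0.35, miR-150 at -0.13 ± 0.32 and miR-223 at 0.03 ± 0.34. With size factors these were at -0.27, 0.32 and 0.41 in the same order. The endothelial miR-126-3p was at -0.97 ± 0.30 (adjusted p = 0.0338), under the minimum difference, and the 2 endothelial names had a median of -0.74 (-0.24 with size factors). The germ cell and testis list had a median of -0.70 (-0.38 with size factors) and summed to 3.93 to 113.74 RPM in BMI and 2.15 to 78.87 RPM in DSE. The neuronal miR-9-1 was at -0.80 ± 0.41 (adjusted p = 0.144), or -0.31 with size factors, and the other 2 neuronal names are the same miRNA with equal values. The hepatic miR-122-5p was at -0.12 ± 0.61 (adjusted p = 0.887), or 0.27 with size factors, and the pancreatic miR-217 was at 0.06 ± 0.36 (adjusted p = 0.895). The median of the 2 pancreatic names was 0.08 (0.39 with size factors).

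MiR-708-3p was called with size factors and with TMM but not on the RPM scale, and was singled out after its values were seen. It was at 21.48, 57.08 and 17.18 RPM in BMI epididymis and 198.81, 46.25 and 67.92 RPM in DSE epididymis. In prostate gland it was at 42.21, 60.67 and 24.26 RPM in BMI and 57.14, 137.52 and 116.38 RPM in DSE. In vesicular gland the means were 61.4 ± 29.1 RPM in BMI and 56.1 ± 18.8 RPM in DSE (SD, n = 3). The breeds overlapped in each gland. The difference was 0.94 ± 0.37 on the RPM scale (limma, adjusted p = 0.0634) and 1.43 ± 0.31 with size factors (adjusted p = 0.0199). Without the BMI libraries vesicular gland 1 and prostate gland 3, the value with size factors was 1.33, with an adjusted p of 0.0687.

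Whether the breed difference itself varied among the 3 glands was tested with the breed by gland terms. No entry of 424 was called (0.0%) by limma, 24 had an unadjusted p below 0.05, and edgeR on whole reads called 0, with 19 below 0.05. Nor was any entry called when the mean breed difference of the 3 glands was set against that of the bulbourethral gland (0 of 424 called, 0.0%, with 8 at an unadjusted p below 0.05). A lack of calls does not show that the differences were equal. EdgeR called 0 there as well, with 14 below 0.05. Without the epididymis library DSE 3, 1 entry passed the test among glands, miR-184, at an adjusted p of 0.0332 (0.454 with all libraries).

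Against testis, the breed difference of the 3 glands differed in 19 of 424 entries (4.48%), with 17 more negative (4.01%) and 2 more positive (0.472%) in the 3 glands. Among the 19 were chr8_43390 at 2.54 (adjusted p = 0.00229) and chr1_2528 at -2.54 (adjusted p = 0.0143). Neither was called with size factors, and with a pseudocount of 0.1 or with edgeR no entry was called more positive. As a ratio of summed reads, chr8_43390 was 774 times as high in BMI as in DSE in testis (counting interval 375 to 1927), so its larger log2(RPM + 1) difference there was not a larger ratio than the 3465 of the 3 glands. The testis libraries were shallower, at 1290000 to 2720000 reads in BMI and 2980000 to 11820000 in DSE. MiR-129a-5p and miR-129b, which are listed apart but have the same mature sequence and nearly the same values, were at 176 to 195 RPM in BMI testis and 544 to 1489 RPM in DSE testis for miR-129a-5p. In the 3 glands miR-129a-5p was at 13.54 to 268.85 RPM in BMI and 8.48 to 163.99 RPM in DSE. Their sequence is shown because the deposited names do not separate them.
ssc-miR-129a-5p: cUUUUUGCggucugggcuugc
MiR-216 was at 1.54 to 1.84 RPM in BMI testis and 8.85 to 18.87 RPM in DSE testis, and at 0.07 to 3.22 and 0.31 to 1.84 RPM in the 3 glands. In the BMI testis libraries 3 reads were 1.10 to 2.32 RPM, so miR-216 was near that level there. With size factors 5 entries were called (1.18%), and edgeR on whole reads called 2.

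The RNA-seq libraries with the same labels gave the level of genes that span miR-206, miR-425-5p, miR-374a or miR-429, and the genes around other called miRNAs were not tested. Of 14716 genes, 38 were called between the breeds over the 3 glands (0.258%), 20 of them higher in DSE (0.136%) and 18 lower (0.122%). Of the genes that span these miRNAs, 6 were in the fit and none was called by limma. ENSSSCG00000058584 over miR-206, and ENSSSCG00000057763 and NEXMIF around miR-374a, were too low for the fit, so their breed difference was not tested. The TPM of a gene sums all its isoforms. In RPS4X, PHKA1, HDAC8 and ENSSSCG00000027991 only 1 of 5, 1 of 15, 1 of 20 and 1 of 12 isoforms spans the miRNA. The sum does not single out that isoform. DALRD3, over miR-425-5p, was at 31.1 ± 4.52 TPM in BMI and 34.5 ± 8.98 TPM in DSE (SD, n = 9), a difference of 0.11 ± 0.15 on the log2(TPM + 1) scale (adjusted p = 0.9999). PHKA1 and HDAC8, which span miR-374a, were at 0.04 ± 0.21 and -0.03 ± 0.20, and RPS4X at 0.23 ± 0.18. TMEM88B, around miR-429, was at 1.17 ± 0.46 TPM in BMI and 1.47 ± 0.71 TPM in DSE, a difference of 0.17 ± 0.16. The adjusted p of all 6 genes was 0.989 or above.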

How the data were processed

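Small RNA was sequenced from 5 glands of BMI and DSE boars. The authors removed adapters with cutadapt and other small RNA classes with Bowtie 1.3.1, and predicted and quantified miRNAs with miRDeep2. They deposited RPM with 2 decimals. RNA-seq was deposited by the authors as TPM per transcript (Salmon 1.9.0) and summed here over genes, of which those with 1 TPM in 3 of 18 libraries were fitted on log2(TPM + 1), and the coordinates of the annotation are on Sscrofa11.1. RPM was used as log2(RPM + 1), for entries that reached 1 RPM in 3 libraries or more of the 18. The fits used limma 3.58.1 with a trend, in R 4.3.3, and the breed calls needed an adjusted p below 0.05 and a log2 difference of 1. Whole reads were recovered from the RPM steps for 98.3% to 100% of the values of a library, within 0.005 RPM, and were tested with edgeR 4.0.16. On RPM totals it called 63 entries, 30 of the 31 called by limma among them.

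The members and the lists of miRNAs and markers were chosen with earlier results of these data known. The miRNAs named over the 3 glands were the called ones with the largest difference, at most 10 in each direction, of which 1 was higher. Also named were all called in a single gland, the 5 called with the smallest p against testis and the 5 most abundant. In each list the called and the most abundant names were given. Every other miRNA named, among them miR-133a-3p, miR-499-5p, miR-141, miR-92a, miR-34c, let-7a, miR-142-3p, miR-18a, miR-362, miR-136-5p, miR-708-3p and miR-184, was chosen after its values were seen. The 25 lists were typed from general knowledge. Of 379 known names, 290 had the same name in RefSeq. The model fits were tested on simulated data. Other steps used Python 3.11.15, pandas 2.3.3, numpy 2.4.6, scipy 1.17.1 and matplotlib 3.10.9.

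Libraries of the same number in the 2 breeds did not all deviate together (r from -0.60 to -0.13 in epididymis, -0.06 to 0.41 in vesicular gland and -0.02 to 0.09 in prostate gland), so numbers were not taken to pair samples. For the same breed and number in different glands r was -0.62 to 0.55, above 0.1 in 3 of 18 pairs, and BMI vesicular gland 1 and BMI prostate gland 3 deviated together (r = 0.76). No batch is given in the labels. The Iso-seq counts were not used here.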

Additional observations from a re-analysis of the deposited data

Results flagged for a closer look

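The breed difference (DSE minus BMI, log2(RPM + 1)) of the 3 glands differed from that of testis for the miRNAs given here, each by limma's test of the difference itself. The value is the mean difference of the 3 glands minus that of testis. It was -2.31 ± 0.41 for miR-216 (SE, adjusted p = 0.00126), -2.63 ± 0.51 for both miR-129b and miR-129a-5p (adjusted p = 0.00196), whose mature sequences are the same, -2.53 ± 0.49 for the predicted miRNA chrX_48760 (adjusted p = 0.00196) and -2.10 ± 0.42 for miR-615 (adjusted p = 0.00218). With size factors the values were -1.67 (adjusted p = 0.0329) for miR-216, -2.32 and -2.31 (adjusted p = 0.00165) for miR-129b and miR-129a-5p, -1.91 (adjusted p = 0.0534) for chrX_48760 and -1.73 (adjusted p = 0.0534) for miR-615.

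In testis, DSE was higher for each of them. MiR-615, from the HOXC cluster, was at 5.34 ± 1.14 RPM in BMI testis and 22.5 ± 6.09 RPM in DSE testis (SD, n = 3). In epididymis the order was the other way, at 22.5 ± 10.5 RPM in BMI and 9.43 ± 3.15 RPM in DSE with overlapping libraries, and vesicular and prostate gland were at or below 1.52 RPM in each library. ChrX_48760 was at 3.57 ± 2.85 RPM in BMI prostate gland and 0.157 ± 0.16 RPM in DSE prostate gland, with differences of -1.69 in prostate gland, -0.05 in epididymis and -0.07 in vesicular gland, none of them called. In testis it rested on 1 to 2 reads in each BMI testis library and 22 to 53 reads in each DSE testis library. In the BMI testis libraries miR-216 was near the level of 3 reads, which was 1.10 to 2.32 RPM. The part of the shallower testis libraries in these values was not tested.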

How the results depend on the processing

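Over the 3 glands, limma called 31 entries. The number was 65 with a pseudocount of 0.1, 63 with edgeR on whole reads, 98 with no minimum difference, 13 without the gland term, 19 without all epididymis libraries and 4 without all vesicular gland libraries, where miR-200b was the known miRNA still called. It was 4 with size factors, 6 with size factors and no minimum difference, 7 with size factors and a random term for breed and number, which the labels do not tie to a boar, 3 with size factors and without the 2 BMI libraries low in miR-143-3p, and 5 with edgeR and TMM. The last 4 were added after the data were seen. Leaving out each library gave 20 to 44 calls, the fewest without epididymis DSE 2. The 3 predicted miRNAs kept their calls over the 3 glands under all 39 alternatives, which refit the same libraries. Under the filter of 1 RPM, chr8_43390 and chr13_9416 entered through BMI alone, with at most 0.09 and 0.49 RPM in DSE. The predicted miRNA chr1_2528 entered through DSE alone, with at most 0.34 RPM in BMI. For the 11 miRNAs named for a call over the 3 glands or in a single gland, all 572 values under alternatives kept their sign, and 56 lost the call, among them chr13_9416 in vesicular gland without DSE 2 (adjusted p = 0.101) or DSE 3 (adjusted p = 0.0633). Among uncalled names, let-7i-5p (-0.44 to 0.06), miR-148a-3p (-0.48 to 0.02), miR-92a (-0.23 to 0.27) and miR-181a (-0.41 to 0.09) changed sign with size factors.

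In single glands, leaving out each library gave 2 to 8 calls in epididymis, the most without DSE 1 and 7 without BMI 1, 2 to 21 in vesicular gland and 3 to 6 in prostate gland, the most without BMI 2. One fit of 18 libraries gave 28 in epididymis. In prostate gland a minimum of 10 RPM, a minimum within the gland and edgeR gave 5 each. With the replicate number as a block there were 31 calls over the 3 glands, 4 in epididymis and 10 in prostate gland, though the numbers do not pair samples. Calls of the difference among glands were 0 to 1 over left-out libraries. Against testis 19 became 7 with a pseudocount of 0.1, 5 with size factors, 50 with no filter, 47 with the filter over 30 libraries, 7 from 10 RPM, 2 with edgeR, and 10 to 24 over left-out libraries (10 without BMI testis 1 and without DSE testis 2). The cause was not tested, except that filters change the number tested. A level under 3 reads cannot be told from 0. That is 0.138 to 0.23 RPM in the libraries of the 3 glands and 0.254 to 2.32 RPM in the testis libraries.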
